A study of Mus musculus with 10 samples.

Results

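The genes Uchl1, Uchl3, Uchl5, Ubb, Usp14, Usp8 and Stambp of the ubiquitin system were followed in the hearts of young mice. They are 7 of the 55858 genes in the deposited table and were found there by gene name. All 7 were above the filter on low values, which asked for at least 1 TPM (transcripts per 1000000) in at least 5 of the 10 libraries and left 13282 genes. The set was drawn up with the difference between the groups already known, so that difference is described for these 7 genes without a test. Other genes of the ubiquitin system were tested. Their lists were also chosen with earlier results of these data known, so counts and calls among them carry that choice too.

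All 10 mice carried the genotype that the labels give as MCM; Chmp4bF/F. The 5 cKO mice were injected under the skin with tamoxifen, 0.1 mg/g, on 2 days from postnatal day 0, and the 5 control mice were injected with corn oil. Whole hearts were taken at postnatal day 10 and their RNA was sequenced. The labels do not spell out MCM or name the promoter that drives it, and they give no sex. Because the controls carried the same alleles but had no tamoxifen, the effects of tamoxifen and of the loss of Chmp4b cannot be told apart.

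Ubiquitin is a small protein that is joined to other proteins by a chain of E1, E2 and E3 enzymes and that marks them for the proteasome or for sorting at the endosome. Deubiquitinases remove it. The UCH family (Uchl1, Uchl3, Uchl5) cuts ubiquitin from short or flexible ends and helps to mature ubiquitin precursors, Usp14 and Uchl5 act on substrates docked at the proteasome, and Usp8 and Stambp (also called AMSH) act on cargo at the endosome, where both bind the ESCRT machinery to which Chmp4b belongs. Ubb is one of the genes that encode ubiquitin itself, as a head-to-tail polymer. Uchl1 is best known as an abundant protein of neurons.

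TPM closes every library to the same total, and transcripts named mt-, encoded by the mitochondrial genome, took 35.5% to 41.5% of it in cKO libraries and more in every control library, up to 59.4%. As deposited, the median of all tested genes was 0.63 higher in cKO on the log2 scale. Values below were therefore rescaled by size factors (the median of ratios to a typical library) and are called scaled TPM, for which that median was 0.01. They show where a gene stands relative to the rest. Log2 differences are those of log2(scaled TPM + 1), cKO minus control, and values are means ± SD of 5 libraries a group unless a single library is named. Chmp4b, the targeted gene, was at 29.4 ± 1.37 scaled TPM in cKO and 60.5 ± 6.47 in control hearts (log2 difference -1.01, limma adjusted p = 1.87e-06). In whole tissue, fewer cells of a type and less RNA per cell cannot be told apart.

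The libraries also differed in sex-linked transcripts. In cKO replicates 1, 5 and 7 Xist was at 47.6 to 65.9 TPM and Ddx3y at 0.08 TPM or less, while in the other 7 libraries Xist was at 0.12 TPM or less and Ddx3y at 16.7 to 32.9 TPM. No control library therefore matched the 3 cKO libraries with Xist, and differences of the 7 genes are given below with and without them. Of the other ubiquitin-system genes named, those whose call was lost without them are said to have lost it. The fit without them kept only 2 cKO libraries, so a call could be lost with little change in the difference.

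Stretches of sequence are given from 2 places. The first is the region upstream of Uchl1 and Ubb, the 2 genes of the set that differed most. Bases are given 5′ to 3′ on the gene's strand from RefSeq on GRCm38.p6, up to 250 bases before the RefSeq start and only outside the gene as GENCODE M21 places it. Capitals mark a match to the heat shock element spelled TTCNNGAANNTTC or GAANNTTCNNGAA.
Uchl1, chr5:66675871-66676090, plus strand: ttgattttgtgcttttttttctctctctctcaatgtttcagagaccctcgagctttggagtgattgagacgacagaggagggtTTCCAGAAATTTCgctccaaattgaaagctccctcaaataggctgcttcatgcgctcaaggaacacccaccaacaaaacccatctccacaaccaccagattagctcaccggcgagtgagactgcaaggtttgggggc
Ubb, chr11:62550921-62551170, plus strand: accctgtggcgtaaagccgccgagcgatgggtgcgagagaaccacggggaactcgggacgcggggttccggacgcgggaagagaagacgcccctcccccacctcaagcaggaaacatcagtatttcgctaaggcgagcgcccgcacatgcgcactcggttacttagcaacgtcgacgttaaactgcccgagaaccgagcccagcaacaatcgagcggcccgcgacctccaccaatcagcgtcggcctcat

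The Uchl1 match lies 167 to 155 bases before the RefSeq start, and these letters occur in 153 of 32851 mouse promoter windows of 250 bases (0.466%). They were not found in the 250 bases before the RefSeq start of Ubb, Uchl3, Uchl5, Usp8 or Stambp (of which 225 for Stambp lie inside the gene as GENCODE places it), and Usp14 was not searched. Of 3 other motifs searched on both strands, the antioxidant response core (TGACNNNGC or GCNNNGTCA, in 10.2% of windows) was found in Uchl5 alone, 34 to 26 bases before the start. The E-box CACGTG (6.02% of windows) and the AP-1 site TGANTCA (6.75%) were found in none of the 6. A match describes letters and shows no binding.

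The second is the repeat that makes up Ubb, because it sets how well reads can be placed. The coding sequence of Ubb holds 4 ubiquitin units of 228 bases. The first 60 bases of 3 units are given, with bases that differ from unit 1 of Ubb in capitals.
Ubb unit 1: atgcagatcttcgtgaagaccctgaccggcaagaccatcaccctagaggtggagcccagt
Ubb unit 2: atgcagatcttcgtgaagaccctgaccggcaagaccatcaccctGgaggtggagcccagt
Ubb unit 4: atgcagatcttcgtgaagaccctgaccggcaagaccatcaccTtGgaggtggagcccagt

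Units 2 to 4 of Ubb were 95.6% to 99.1% identical to unit 1. Of the 50-base windows of the Ubb coding sequence, 77.0% occurred in the pseudogene Ubb-ps (the same gene ID is named Gm1821 in GENCODE M21). Reads that match both genes could be split between them or left out of both, so their values are uncertain. Of the windows of Uchl3, 34.0% occurred in Uchl4. None of the coding windows of Uchl1, Uchl5, Usp14, Usp8 or Stambp occurred in transcripts of another gene. Windows of untranslated ends and matches on the opposite strand were not searched.

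Uchl1 was the member with the largest difference. The gene (ENSMUSG00000029223.13) is at chr5:66676091-66687234 on the plus strand of GRCm38. Its scaled TPM was 270.4, 205.8, 257.7, 181.1 and 289.6 in cKO replicates 1, 3, 5, 6 and 7. It was 22.4, 21.9, 22.55, 21.9 and 20.3 in control replicates 4, 6, 8, 9 and 13. The lowest cKO library stood far above the highest control library. The means were 240.9 ± 45.6 and 21.8 ± 0.898, which is 11.05-fold and a log2 difference of 3.39, rank 15 among the 13282 tested genes.

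The control libraries were close together for Uchl1, with a coefficient of variation of 4.12%, and the cKO libraries were spread more widely, at 18.9%. The 3 cKO libraries with Xist were at 257.7 to 289.6 scaled TPM, and the 2 without it were at 181.1 and 205.8. Without those 3 libraries the log2 difference was 3.09, and it was 3.16 with Ddx3y as a covariate. Leaving out each library in turn gave 3.32 to 3.48.

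**Figure D1:**
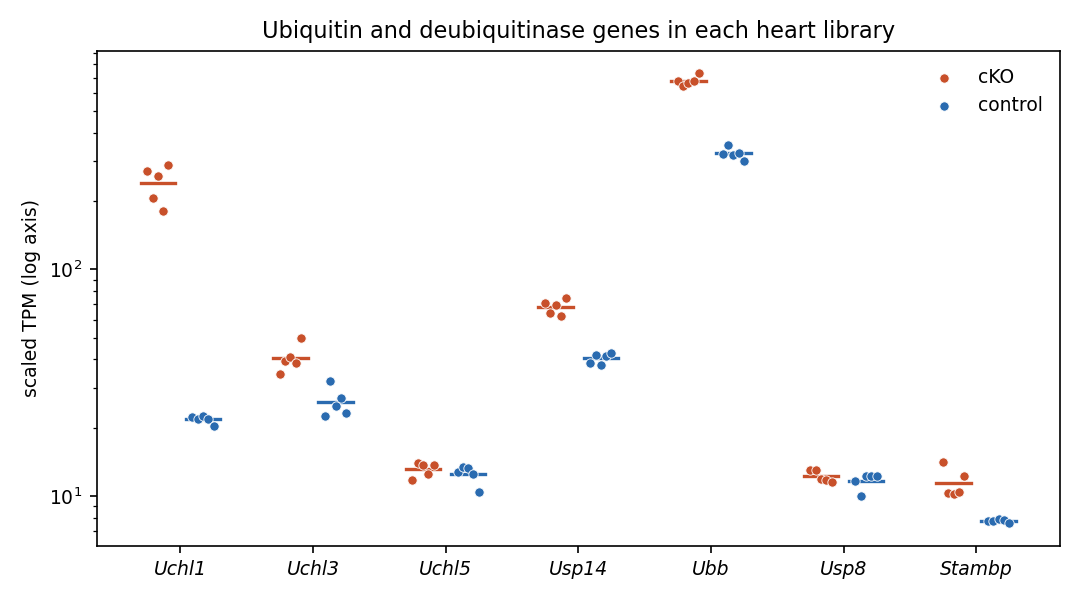
Scaled TPM of the 7 genes in each of 5 cKO (orange) and 5 control (blue) heart libraries, on a log axis, with a bar at each group mean. Uchl1 was at 181.1 to 289.6 in cKO and 20.3 to 22.55 in control libraries, while the groups overlapped for Uchl5 and Usp8.

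Uchl3, the close relative of Uchl1 that is made in most tissues, differed far less. The gene (ENSMUSG00000022111.10) is at chr14:101653967-101696125 on the plus strand. In scaled TPM it stood at 34.5, 39.4, 41.05, 38.4 and 49.7 in cKO replicates 1, 3, 5, 6 and 7, and 22.5, 32.2, 24.9, 27.1 and 23.3 in control replicates 4, 6, 8, 9 and 13. The groups did not overlap, but the lowest cKO library, replicate 1, was close to the highest control library, replicate 6. The means were 40.6 ± 5.61 and 25.98 ± 3.89, 1.56-fold, with a log2 difference of 0.63 that was 0.58 without the 3 cKO libraries with Xist. Uchl4, whose sequence Uchl3 shares in part, was listed at 0 in all cKO libraries and averaged 0.0166 scaled TPM in control libraries, so little of the Uchl3 signal was assigned there.

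Uchl5 (also called UCH37), which is bound to the proteasome and to the INO80 chromatin remodeller, was at nearly the same scaled level in both groups. The gene (ENSMUSG00000018189.13) is at chr1:143777272-143807466 on the plus strand. Its scaled TPM was 11.75, 13.95, 13.7, 12.4 and 13.7 in the cKO libraries and 12.7, 13.4, 13.3, 12.5 and 10.4 in the control libraries, in the replicate order used above. The groups overlapped. The means were 13.1 ± 0.953 and 12.5 ± 1.219, with a log2 difference of 0.07, of 0.08 without the 3 cKO libraries with Xist, and of 0.76 in TPM as deposited, where the groups did not overlap.

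The order of the 3 UCH genes changed within the libraries. Uchl1 was at 0.853 ± 0.118 of the level of Uchl3 in control hearts and at 5.98 ± 1.19 times it in cKO hearts, a ratio that no scaling of a library can move. TPM is per length, so these ratios compare transcripts of different genes. Uchl1 held 28.5% ± 1.58 of the summed TPM of Uchl1, Uchl3, Uchl5 and Bap1 in control hearts and 77.7% ± 3.36 in cKO hearts. Of the summed TPM of all 89 deubiquitinase genes listed, Uchl1 held 1.97% ± 0.0764 in control and 17.1% ± 2.59 in cKO hearts. Uchl5 went the other way against Uchl3, at 0.485 ± 0.0634 in control and 0.325 ± 0.03 in cKO hearts, with no overlap.

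Bap1, the remaining UCH enzyme and a nuclear deubiquitinase of histone H2A, was at 14.0 ± 1.26 scaled TPM in cKO and 16.5 ± 1.11 in control hearts, a log2 difference of -0.23 (limma adjusted p = 0.0293) that was 0.47 in TPM as deposited. That call was lost without cKO replicate 1, 3 or 7 or control replicate 8 or 13 (limma adjusted p from 0.0614 to 0.0767). It was also lost without the 3 cKO libraries with Xist (log2 difference -0.21, limma adjusted p = 0.192).

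**Figure D2:**
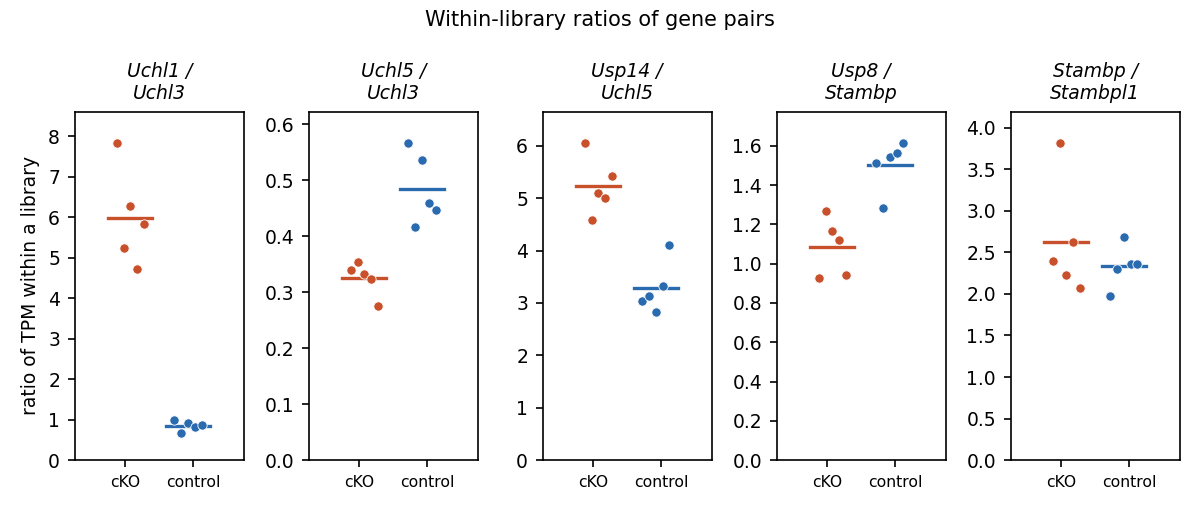
Ratio of the TPM of 5 gene pairs within each library, with a bar at each group mean (cKO orange, control blue, axes from 0). Uchl1 over Uchl3 averaged 5.98 in cKO and 0.853 in control hearts, and Stambp over Stambpl1 averaged 2.63 and 2.34 with the groups overlapping.

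Since Uchl1 is a neuronal gene, it was set beside 19 markers of neurons. Of the 19, 14 stayed under 1 TPM in every library, and Chrna3, a nicotinic receptor of autonomic neurons, was listed at 0 in all 10. Only 3 could be tested. Tubb3, a neuronal tubulin, stood at 0.753 ± 0.0756 scaled TPM in control and 15.8 ± 3.26 in cKO hearts (log2 difference 3.24). It passed the filter only through the cKO libraries, since its control libraries were at 0.47 to 0.709 TPM. It was also named after its values were seen, so its difference is given without a test. Stmn2, a microtubule regulator of growing axons, fell by 0.54 on the log2 scale (limma adjusted p = 0.00748). It went from 2.21 ± 0.543 to 1.18 ± 0.196 scaled TPM, with overlap. Ret, a receptor of neurotrophic factors, fell by 0.51 (limma adjusted p = 0.00904), from 2.26 ± 0.22 to 1.32 ± 0.45 scaled TPM. Both genes stood near the filter of 1 TPM. In TPM as deposited Stmn2 and Ret differed by -0.09 and -0.05, and neither call was made.

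The summed TPM of the 19 markers was 20.3 to 34.3 in the cKO group and 5.66 to 7.498 in the control group. Without Tubb3 the other 18 summed to 4.64 to 7.17 TPM in cKO hearts and to 4.98 to 6.95 TPM in control hearts, so that the groups overlapped. In scaled TPM those 18 summed to 3.34 to 5.33 in cKO hearts and to 5.89 to 8.79 in control hearts, lower in cKO and without overlap. Of the Schwann cell markers, 2 of 7 were tested, 0 were higher and 1 was lower in scaled TPM, and 1 was higher and 0 were lower as deposited. Uchl1 was 29.2 ± 3.48 times the level of Tubb3 in control and 15.4 ± 1.97 times in cKO hearts.

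**Figure D3:**
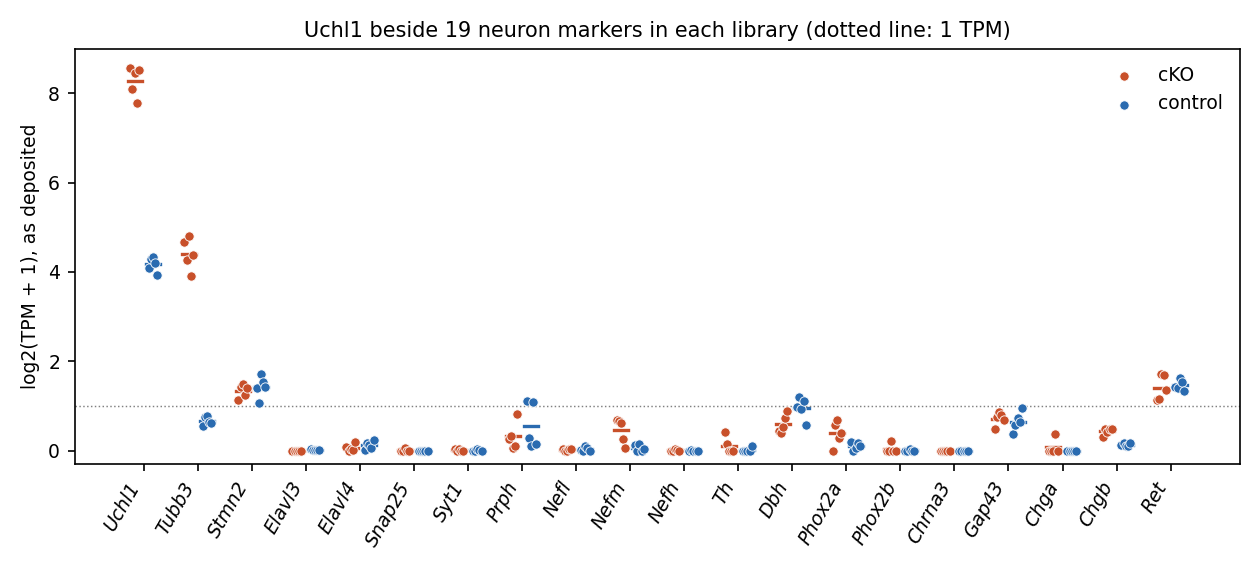
TPM as deposited, as log2(TPM + 1), of Uchl1 and 19 neuron markers in each cKO (orange) and control (blue) library, with bars at group means and a dotted line at 1 TPM. Uchl1 and Tubb3 stand apart between the groups, and 14 markers stay under 1 TPM in all 10 libraries.

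Markers of some other cell types also moved between the groups. In scaled TPM 20.8% of all tested genes were called higher and 20.8% lower. All 10 macrophage markers tested were higher, with summed TPM as deposited of 419.6 to 628.0 in the cKO group and 70.2 to 96.4 in the control group, and none was at 0. All 7 fibroblast markers were higher, summing to 1351 to 1659 scaled TPM in the cKO group and 860.8 to 1027 in the control group. All 7 cardiomyocyte markers, and 6 of 7 endothelial markers, were lower in scaled TPM, and in TPM as deposited 3 of 7 and 0 of 7 were lower. Of 6 smooth muscle and pericyte markers, 2 were higher and 3 lower in scaled TPM. Of the erythroid markers, 5 were tested and 0 were called. Only 1 epicardial marker, which was lower, and 0 lymphocyte markers could be tested. The part of these cell types in the values of the 7 genes was not tested.

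The genes closest to Uchl1 over the 10 libraries were found by the root mean square difference of log2(scaled TPM + 1), each gene centred on its own control mean, among 13281 genes. They were Tubb3 (0.164), Mllt11 (0.252), Mgst1 (0.258), Gdf15 (0.275), Cxcl10 (0.286) and Nqo1 (0.286). Mgst1 and Nqo1 encode detoxifying enzymes, Gdf15 a stress-induced secreted factor of the TGF-beta family and Cxcl10 an interferon-induced chemokine. Mllt11 was at 60.3 ± 7.60 scaled TPM in cKO and 6.21 ± 0.346 in control hearts, and Nqo1 was at 86.8 ± 18.4 and 9.38 ± 1.07. Gdf15 was at 23.0 ± 5.72 scaled TPM in cKO and 1.01 ± 0.385 in control hearts, and Cxcl10 at 16.9 ± 4.38 and 0.474 ± 0.142. Adding 1 before the log shrinks differences of genes that low in control hearts. Tubb3, which is among them, differed 20.99-fold in means, against 11.05-fold for Uchl1. The measure therefore ranks likeness of pattern and size on that log2 scale only.

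Ubb was the most abundant of the 7 genes in both groups. The gene (ENSMUSG00000019505.8) is at chr11:62551171-62553213 on the plus strand. The level was 677.2, 643.7, 666.1, 674.9 and 732.0 scaled TPM in cKO replicates 1, 3, 5, 6 and 7. It was 320.9, 354.4, 319.8, 326.4 and 301.3 in control replicates 4, 6, 8, 9 and 13. Every cKO library was well above every control library, and the spread within a group was small. The means were 678.8 ± 32.6 and 324.6 ± 19.2, 2.09-fold, with a log2 difference of 1.06 that was 1.03 without the 3 cKO libraries with Xist.

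The pseudogene Ubb-ps, at chr14:46084028-46085000 on the plus strand, was listed at 164.9 to 209.6 scaled TPM in cKO hearts and 87.2 to 128.0 in control hearts. Its ratio to Ubb was 0.270 ± 0.0297 in cKO and 0.312 ± 0.0585 in control hearts, with overlap. Summed, the 2 genes stood at 861.6 ± 34.6 and 425.6 ± 24.4 scaled TPM, 2.02-fold, without overlap. Any reads left out of both genes would be missing from this sum too.

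Rps27a, which encodes ubiquitin fused to ribosomal protein eS31, differed less than Ubb. It was at 376.4 ± 53.1 scaled TPM in cKO and 301.7 ± 39.3 in control hearts (log2 difference 0.32, limma adjusted p = 0.035), with overlap. That call was lost without cKO replicate 3, 6 or 7 or control replicate 4, 8, 9 or 13 (limma adjusted p from 0.0567 to 0.0821). It was also lost without the 3 cKO libraries with Xist (log2 difference 0.32, limma adjusted p = 0.0842). Every 50-base window of its coding sequence also occurred in another annotated gene, so its value is uncertain.

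Usp14 (ENSMUSG00000047879.18), the reversibly bound deubiquitinase of the proteasome, was higher in each cKO library than in any control library. Scaled TPM was 71.1, 63.8, 69.6, 62.3 and 74.4 in cKO replicates 1, 3, 5, 6 and 7, and 38.6, 42.0, 37.7, 41.4 and 42.7 in control replicates 4, 6, 8, 9 and 13. The means were 68.3 ± 5.07 and 40.5 ± 2.21, 1.69-fold, with a log2 difference of 0.74. The 2 lowest cKO libraries, replicates 6 and 3, were those without Xist, and the log2 difference without the other 3 was 0.63.

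The proteasome subunits that hold Usp14 and Uchl5, Psmd2 and Adrm1, rose, and so did the lid subunit Psmd14. Psmd2, the base subunit on which Usp14 docks, rose from 65.6 ± 1.64 to 117.1 ± 4.21 scaled TPM (log2 difference 0.83, limma adjusted p = 3.69e-07). Adrm1, the ubiquitin receptor that recruits Uchl5, rose from 40.8 ± 1.49 to 83.9 ± 2.36 (1.02, limma adjusted p = 8.94e-08). Psmd14, the JAMM-family deubiquitinase built into the proteasome lid, rose from 42.1 ± 3.70 to 87.4 ± 6.36 (1.04, limma adjusted p = 1.21e-06).

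Against those subunits the 2 docked enzymes stood differently. Usp14 was at 0.583 ± 0.0458 of Psmd2 in cKO and 0.618 ± 0.0362 in control hearts, with overlap, and at 0.783 ± 0.0646 and 0.968 ± 0.0996 of Psmd14, without overlap. Uchl5 was at 0.156 ± 0.0075 of Adrm1 in cKO and 0.305 ± 0.026 in control hearts, with no overlap. Usp14 was 5.23 ± 0.549 times Uchl5 in cKO and 3.29 ± 0.494 times in control hearts, also without overlap. The INO80 partners of Uchl5 did not pass the test: Nfrkb differed by 0.28 (limma adjusted p = 0.0971) and Ino80 by 0.16 (limma adjusted p = 0.141). Nfrkb did pass without cKO replicate 7 (0.36, adjusted p = 0.0319) and without control replicate 13 (0.38, adjusted p = 0.0156).

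The 2 endosomal enzymes parted. Usp8, which spares receptors and ESCRT-0 itself from breakdown, is at chr2:126707328-126759297 on the plus strand (ENSMUSG00000027363.16). Its scaled TPM was 13.02, 13.03, 11.9, 11.7 and 11.5 in the cKO libraries and 11.7, 9.997, 12.2, 12.2 and 12.2 in the control libraries, in the replicate order used above. Control replicate 6 was the lowest, and the groups overlapped. The means were 12.2 ± 0.736 and 11.7 ± 0.964, with a log2 difference of 0.06, of 0.08 without the 3 cKO libraries with Xist, and of 0.75 in TPM as deposited.

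Stambp, the JAMM-family enzyme that trims ubiquitin chains from endosomal cargo and that binds CHMP3 and CHMP1 proteins, is at chr6:83543211-83572729 on the minus strand (ENSMUSG00000006906.11). Its scaled TPM was 14.1, 10.3, 10.2, 10.5 and 12.2 in cKO replicates 1, 3, 5, 6 and 7, and 7.72, 7.79, 7.90, 7.83 and 7.59 in control replicates 4, 6, 8, 9 and 13. The control libraries were nearly level, and cKO replicate 1 was the highest. The means were 11.45 ± 1.69 and 7.76 ± 0.117, 1.475-fold, with a log2 difference of 0.50 that was 0.38 without the 3 cKO libraries with Xist. Usp8 was at 1.503 ± 0.128 times Stambp in control and 1.084 ± 0.148 times in cKO hearts, and the highest cKO ratio of 1.27 was just under the lowest control ratio of 1.28.

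Stambpl1, the near relative of Stambp, was at 4.61 ± 1.36 scaled TPM in cKO and 3.35 ± 0.352 in control hearts (log2 difference 0.33, limma adjusted p = 0.118). Its cKO libraries ran from 2.696 in replicate 3 to 5.91 in replicate 7, and without replicate 3 the difference was 0.47 (adjusted p = 0.00932). The ratio of Stambp to Stambpl1 was 2.63 ± 0.695 in cKO and 2.34 ± 0.252 in control hearts, with overlap. Of the other JAMM genes, Brcc3 and Mysm1 differed by 0.07 and 0.01 and were not called. Mpnd was lower by a log2 difference of -0.28 (limma adjusted p = 0.0293) in scaled TPM but 0.41 higher as deposited. Its scaled call was lost in 6 of the 10 fits that left out a library. The call was also lost without the 3 cKO libraries with Xist (log2 difference -0.29, limma adjusted p = 0.169).

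Of 12 partner genes of the endosomal enzymes, 6 rose, 0 fell and 6 were not called, against 20.8% of all tested genes called higher and 20.8% called lower in scaled TPM. Hgs, the ESCRT-0 subunit that binds ubiquitinated cargo, rose from 9.81 ± 1.957 to 20.3 ± 1.84 scaled TPM (log2 difference 1.00, limma adjusted p = 6.65e-05). Its partners in ESCRT-0 split: Stam2 rose by 0.48 (limma adjusted p = 0.000571), and Stam differed by 0.09 (limma adjusted p = 0.444); the difference between them was not tested. Ptpn23, an ESCRT adaptor that binds both STAM and CHMP4, rose by 0.50 (limma adjusted p = 0.00478).

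Chmp1b and Chmp1a, ESCRT-III proteins that bind the microtubule interacting domains of Stambp and Usp8, rose by 0.43 and 0.31 (limma adjusted p = 0.00149 and 0.00143). Chmp3, an ESCRT-III subunit that Stambp binds tightly, was at 48.4 ± 6.02 and 42.5 ± 2.62 scaled TPM (log2 difference 0.18, limma adjusted p = 0.112), and Chmp7 differed by 0.04. Rnf41, an E3 ligase stabilised by Usp8, differed by 0.04 and was not called. Of the phosphoserine adaptors that hold Usp8 in the cytosol, Ywhab rose by 0.27 (limma adjusted p = 0.00298). Without the 3 cKO libraries with Xist it differed by 0.22 and the call was lost (limma adjusted p = 0.0801). Ywhae and Ywhaz differed by -0.09 and -0.01, were not called, and differed by 0.65 and 0.73 in TPM as deposited. All 16 partner genes, the 4 of the proteasomal enzymes included, were called higher in TPM as deposited, as were 76.5% of all tested genes.

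Counting the set itself, the groups did not overlap for 5 of the 7 genes in scaled TPM and for 7 of 7 in TPM as deposited, each with cKO higher. Over all 13282 tested genes the groups did not overlap for 31.3% in scaled TPM (15.8% with cKO higher) and for 64.4% as deposited (62.5% with cKO higher). The same 5 in scaled TPM, and all 7 as deposited, were past the threshold of the fit across all genes, which 41.6% of tested genes passed in scaled TPM and 80.0% as deposited. The median log2 difference of the 7 was 0.63. Uchl1 was followed by Ubb, Usp14, Uchl3 and Stambp, and then by Uchl5 and Usp8, whose differences of 0.07 and 0.06 were smaller than the SD of either group. Since the set was chosen on this contrast, nothing is read from these counts.

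Among the other deubiquitinases the changes ran both ways. Of 83 genes listed apart from the set, 67 were tested, and 15 rose (22.4%), 8 fell (11.9%) and 44 were not called in scaled TPM, with a median log2 difference of -0.00. Over all tested genes 20.8% were called higher and 20.8% lower, so the share that rose was near that of all genes. In TPM as deposited 58 were called higher and 1 lower, beside 76.5% and 3.46% of all tested genes. The 15 that rose were called higher on both scales. Of the 8 that fell, 5 were called higher as deposited, 2 were not called and 1, Usp2, was lower on both. Without the 3 cKO libraries with Xist 4 were called higher and 4 lower, and with Ddx3y as a covariate 8 and 5. Calls over all genes fell too, from 2763 higher and 2766 lower to 1392 and 1803 without those libraries. With the covariate they were 1986 and 2080.

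By family, 9 of 39 tested USP genes outside the set rose and 5 fell, 3 of 14 OTU genes rose and 1 fell, and 2 of 8 Josephin, MINDY and ZUP1 genes rose and 0 fell. The shares that rose, 23.1% of USP, 21.4% of OTU and 25.0% of the last group, were near the 20.8% of all tested genes. All deubiquitinases without Uchl1 summed to 1165 ± 22.5 scaled TPM in cKO and 1085 ± 14.5 in control hearts, and with Uchl1 to 1406 ± 61.6 and 1107 ± 14.7. Uchl1 thus made up most of the difference between the 2 sums.

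Usp20, which deubiquitinates internalised receptors of the beta-adrenergic type, rose from 21.2 ± 1.961 to 45.9 ± 3.87 scaled TPM (log2 difference 1.08, limma adjusted p = 1.78e-06). Usp5, which takes apart free ubiquitin chains, rose by 0.58 (limma adjusted p = 0.000465). Otulin, which removes linear ubiquitin chains, rose by 0.50 (limma adjusted p = 0.000387). Usp10, a regulator of p53 and of stress granules, rose by 0.48 (limma adjusted p = 0.00696), and Atxn3, a Josephin enzyme of protein quality control, by 0.44 (limma adjusted p = 0.0071). Usp9x, a large USP enzyme, rose by 0.38 (limma adjusted p = 0.0356), with the call lost in 6 of the 10 fits that left out a library. Without the 3 cKO libraries with Xist the calls of Usp10, Atxn3 and Usp9x were lost (limma adjusted p = 0.0599, 0.161 and 0.207). Their log2 differences in that fit were 0.51, 0.27 and 0.36.

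Usp2, a USP enzyme under circadian control, fell from 37.0 ± 5.29 to 16.3 ± 4.80 scaled TPM (log2 difference -1.17, limma adjusted p = 0.000364, and -0.46 as deposited). Usp28, a nuclear enzyme that stabilises MYC, fell from 70.3 ± 10.3 to 40.6 ± 4.62 (-0.77, limma adjusted p = 0.000203), but differed by -0.04 as deposited. Usp16, Usp25, Otud6b and Usp4 were lower by log2 differences of -0.44, -0.35, -0.32 and -0.20 in scaled TPM and higher by 0.27, 0.34, 0.38 and 0.52 as deposited. The scaled call of Usp4 was lost without cKO replicate 3 or 5 or control replicate 6 or 13 (limma adjusted p from 0.0595 to 0.075). Without the 3 cKO libraries with Xist the calls of Usp4 and Usp16 were lost (limma adjusted p = 0.0662 and 0.244). Their log2 differences in that fit were -0.26 and -0.28. The most abundant that were not called were Josd2, Usp19, Otub1 and Usp7, with log2 differences of -0.04, -0.16, -0.04 and 0.13.

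**Figure D4:**
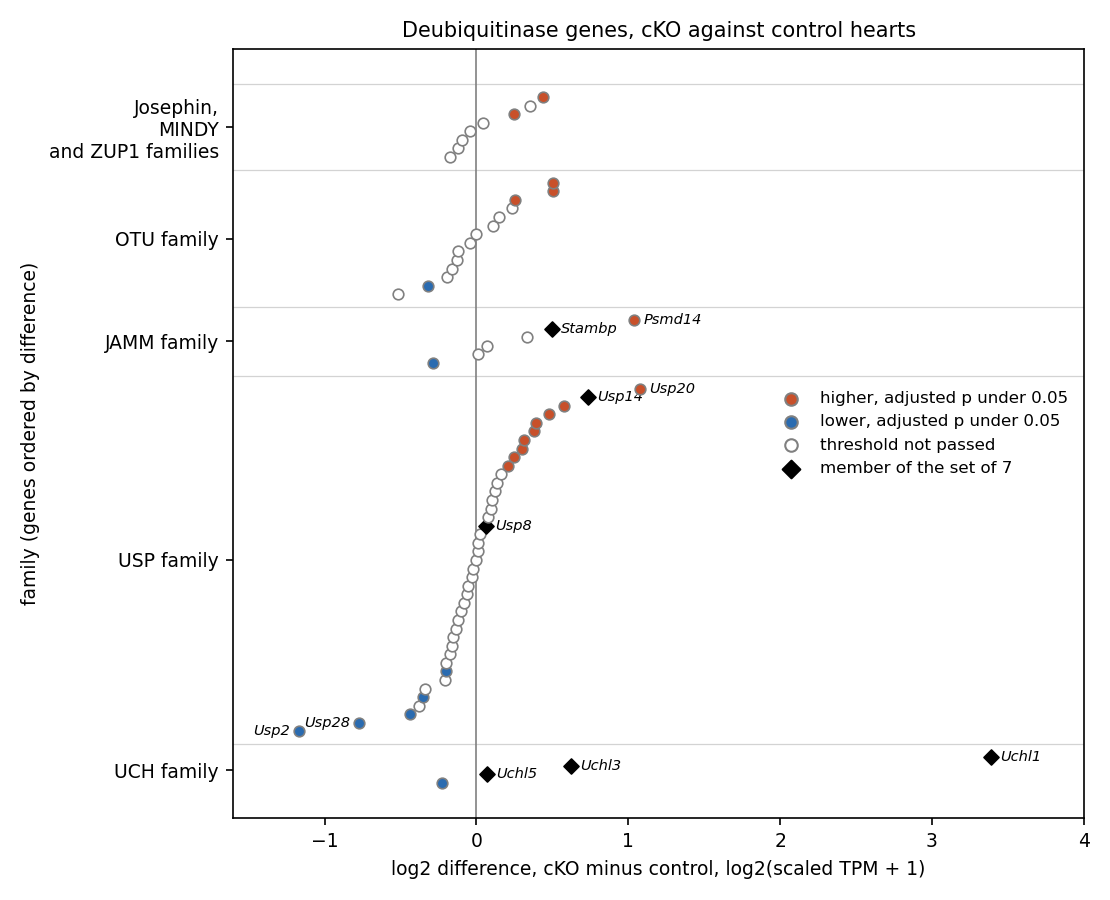
Log2 difference, cKO minus control, of log2(scaled TPM + 1) for the 73 tested deubiquitinase genes, by family (orange higher, blue lower and white threshold not passed in limma; black diamonds are genes of the set, with no test). Uchl1 at 3.39 stands apart, Usp20 reached 1.08, Psmd14 1.04 and Usp2 -1.17; in TPM as deposited 58 of the 67 genes outside the set were called higher.

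Of the enzymes that load ubiquitin, some were called higher and some lower in scaled TPM, neither share above that of all tested genes. Of 34 E1 and E2 genes, 31 were tested, and 5 rose (16.1%), 4 fell (12.9%) and 22 were not called in scaled TPM, beside 20.8% and 20.8% of all tested genes. As deposited 27 were called higher (87.1%) and 0 lower, beside 76.5% and 3.46%. Ube2l3, an E2 that serves parkin and the linear ubiquitin ligase, rose from 71.4 ± 2.06 to 100.3 ± 6.84 scaled TPM (log2 difference 0.48, limma adjusted p = 4.78e-05). Ube2o, Ube2z, Ube2e1 and Ube2q1 rose by 0.47, 0.39, 0.35 and 0.28 (limma adjusted p = 0.000224, 0.000754, 0.00421 and 0.003). Without the 3 cKO libraries with Xist the calls of Ube2e1 and Ube2q1 were lost (limma adjusted p = 0.0587 and 0.0692). Their log2 differences were then 0.35 and 0.26.

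Ube2b, an E2 of histone H2B and of DNA damage tolerance, fell from 180.5 ± 10.8 to 114.8 ± 9.97 scaled TPM (log2 difference -0.65, limma adjusted p = 2.25e-05), and differed by 0.09 as deposited. Ube2t, Ube2d1 and Ube2g1 were lower by log2 differences of -0.56, -0.50 and -0.40 in scaled TPM (limma adjusted p = 0.0109, 0.00417 and 0.000184), against 0.07, 0.21 and 0.31 as deposited. The call of Ube2t was lost with Ddx3y as a covariate (-0.44, limma adjusted p = 0.0909). Uba1, the main E1 enzyme, was at 66.2 ± 3.13 scaled TPM in cKO and 66.1 ± 2.35 in control hearts. Ube2d3, Cdc34 and Ube2s were not called at -0.01, -0.03 and -0.30, but Ube2s was called lower without cKO replicate 6 or 7 (limma adjusted p = 0.0381 and 0.00442).

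The genes closest to Ubb by the measure used for Uchl1 were Psma7 (0.0677), Serpinb6a (0.077), Adrm1 (0.078), Tmem176b (0.0782), Nol3 (0.0789) and Hif1a (0.0799). Psma7 is a subunit of the proteasome core and stood at 217.0 ± 9.77 scaled TPM in cKO and 106.2 ± 11.6 in control hearts. Serpinb6a is an intracellular protease inhibitor, Nol3 an inhibitor of cell death that is abundant in muscle, and Hif1a the oxygen-regulated transcription factor, at 95.4 ± 7.24 and 46.0 ± 1.41 scaled TPM.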

How the data were processed

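The authors deposited 1 table of TPM for 10 heart libraries. The submitters' processing notes name STAR 2.7.1 and HTSeq 0.11.2 among their tools, and the build mm10. The annotation release, gene lengths and strand setting are not given in the sources used here. Overlapping antisense genes can therefore not be separated. Depth cannot be read from TPM, and no counting interval is given. Groups came from sample titles, and the design text gives 5 mice per group. Of 55858 gene IDs, 51460 matched GENCODE M21 without their version.

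TPM was divided by median-of-ratios size factors (16393 genes; 1.20 to 1.39 in cKO and 0.702 to 0.848 in control libraries). Log2(scaled TPM + 1) was fitted with limma 3.58.1 in R 4.3.3 (mean-variance trend, two-sided) over 13282 genes, with calls at a Benjamini-Hochberg adjusted p under 0.05. The fit was tested on simulated data. Python 3.11.15 and pandas 2.3.3 made the tables. The 7 genes and all lists were chosen with earlier results of these data known. Named genes were the 7, Chmp4b, the ubiquitin coding, UCH, JAMM and partner lists, up to 6 rises and 6 falls with a mean of at least 5 TPM and the 4 most abundant uncalled genes of the other lists, and the 6 genes most like Uchl1 and Ubb. Some genes of these lists are not reported here. Stmn2, Ret, Tubb3 and Ubb-ps were named after their values were seen. Alternatives were scalings, pseudocounts, filters, variance models, leaving out each library and Ddx3y as a covariate. Leaving out the 3 cKO libraries with Xist was added after seeing the data.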

Additional observations from a re-analysis of the deposited data

Results flagged for a closer look

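In 7 of 130 groups of 5 libraries, the highest or lowest value lay so far from the rest that its gap, divided by the range of the group, was over 0.71 (Dixon's 95% limit); chance gives about 1 in 20. Usp8 was lowest in control replicate 6, at 9.997 scaled TPM against 11.7 to 12.2 in the other 4 control libraries (0.744). In the same library Rnf41, the E3 ligase stabilised by Usp8, was highest at 8.79 against 7.0 to 7.51 (0.715), and Ube2e1 was highest at 27.4 against 19.9 to 22.1 (0.711). Mysm1, a histone deubiquitinase of the JAMM family, was lowest in cKO replicate 7 at 2.53 against 4.41 to 5.03 (0.7525). Nfrkb was lowest in that library at 3.63 against 4.86 to 5.22 (0.771), and highest among controls in replicate 13 at 5.24 against 3.13 to 3.70 (0.727). Ube2z was lowest in control replicate 13 at 14.45 against 16.9 to 17.7 (0.753).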

How the results depend on the processing

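In TPM as deposited and in TPM without mt- genes, 10160 and 6064 genes were called higher and 460 and 1373 lower, instead of 2763 and 2766 in scaled TPM. Deubiquitinases outside the set called higher numbered 58 and 33, and lower 1 and 2, E1 and E2 genes 27 and 18 higher and 0 and 1 lower, and partner genes 16 and 16 higher. The log2 differences of the set under those settings, in that order, were 4.11 and 3.71 for Uchl1, 1.34 and 0.93 for Uchl3, 0.76 and 0.35 for Uchl5, 1.80 and 1.36 for Ubb, 1.47 and 1.04 for Usp14, 0.75 and 0.35 for Usp8, and 1.16 and 0.80 for Stambp. Both settings leave the shift of all genes in the values, 0.63 and 0.28. Genes below 0 in scaled TPM turned positive as deposited for Bap1 (0.47), Mpnd (0.41), Ywhae (0.65), Ywhaz (0.73), Usp16 (0.27), Usp25 (0.34), Otud6b (0.38), Usp4 (0.52), Josd2 (0.69), Usp19 (0.56), Otub1 (0.68), Ube2b (0.09), Ube2t (0.07), Ube2d1 (0.21), Ube2g1 (0.31), Ube2d3 (0.73), Ube2s (0.44) and Cdc34 (0.70). Without mt- genes this held for Bap1 (0.05), Ywhae (0.20), Ywhaz (0.28), Usp4 (0.08), Josd2 (0.25), Otub1 (0.25), Ube2d3 (0.28) and Cdc34 (0.26). Without the 3 cKO libraries with Xist, a fit of fewer samples, 1392 genes were called higher and 1803 lower, with 4 and 4 deubiquitinases, 3 E1 and E2 genes higher, and differences of 3.09 for Uchl1 and 0.63 for Usp14. With Ddx3y as a covariate 8 deubiquitinases were called higher and 5 lower, beside 1986 and 2080 of all genes. Uchl1 then differed by 3.16, and the cause was not tested. A pseudocount of 5 gave 3.18 for Uchl1 and 0.36 for Stambp, which such a pseudocount shrinks. Leaving out each library gave 11 to 13 deubiquitinases higher and 5 to 9 lower, with the 5 without cKO replicate 3. No paired analysis was possible because the groups share only 1 replicate number. Depth is unknown, so the reads behind low genes such as Stambpl1 and Nfrkb cannot be given.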
